A study of Mus musculus with 6 samples.

Results

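The genes described here are 10 that early B cells use to cut and join their antibody genes and to test the result: *Rag1*, *Rag2*, *Dntt*, *Vpreb1*, *Vpreb2*, *Vpreb3*, *Igll1*, *Blnk*, *Cd79a* and *Cd79b*. They were chosen by symbol, and each of the 10 was found as the only symbol of exactly 1 probe set, among 19938 mouse genes measured on 6 Affymetrix whole-transcript arrays. The arrays were made from marrow of C57BL/6 mice, given as 8 weeks old, with 2 biological replicates in each of 3 groups. All donors had received 5-fluorouracil, and all marrow received a retrovirus before transplantation into C57BL/6 recipients. The virus carried BCR-ABL and GFP (BCR-ABL group), BCR-ABL, Blk and GFP (BCR-ABL-Blk group), or GFP alone (vector group). At 14 days after transplantation, GFP+ cells without lineage markers that carried c-Kit and Sca-1 (LSK) were sorted from the marrow. The labels call the BCR-ABL and BCR-ABL-Blk cells leukemic stem cells and the vector cells hematopoietic stem cells, and give the genotype of all as wild type. They do not say how many recipients made up a replicate, so p-values measure the spread between these arrays.

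B cells assemble their antibody genes from separate segments. The Rag1 and Rag2 proteins form the recombinase that cuts the DNA, and the polymerase made by *Dntt* adds nucleotides without a template at the joints. A finished heavy chain is then displayed with a surrogate light chain made from VpreB and lambda5 proteins, and signals through Cd79a and Cd79b to the adaptor Blnk. In bone marrow some of these genes, *Dntt* and *Rag1* among them, are also switched on in lymphoid-primed progenitors before the B cell fate is fixed. BCR-ABL is the fused tyrosine kinase that drives chronic myeloid leukemia. Blk, a kinase of the Src family, is best known from B cells.

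The promoter windows of the 4 genes with the greatest difference between the BCR-ABL and BCR-ABL-Blk arrays and the vector arrays are shown first, to let the letters before these genes be compared. Each window runs from 250 bases before to 50 bases after the RefSeq start site (GRCm38.p6), 5′ to 3′ on the gene's strand. The windows are *Blnk* at chr19:40994172-40994471 (minus strand), *Rag1* at chr2:101649483-101649782 (minus), *Igll1* at chr16:16863936-16864235 (minus) and *Vpreb3* at chr10:75948050-75948349 (plus). Capitals mark matches, on either strand, to the motifs named in the next paragraph.
Blnk: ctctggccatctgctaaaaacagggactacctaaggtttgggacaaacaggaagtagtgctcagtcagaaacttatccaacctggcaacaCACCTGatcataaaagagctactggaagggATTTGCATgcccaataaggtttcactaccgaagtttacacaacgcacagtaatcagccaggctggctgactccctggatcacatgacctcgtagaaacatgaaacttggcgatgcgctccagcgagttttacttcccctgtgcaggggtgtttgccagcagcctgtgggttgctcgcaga
Rag1: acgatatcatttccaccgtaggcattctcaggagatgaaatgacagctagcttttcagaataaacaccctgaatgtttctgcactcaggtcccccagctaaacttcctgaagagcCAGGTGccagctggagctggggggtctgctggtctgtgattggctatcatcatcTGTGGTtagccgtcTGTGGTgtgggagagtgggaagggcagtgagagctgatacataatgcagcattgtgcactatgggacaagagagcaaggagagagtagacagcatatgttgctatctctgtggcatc
Igll1: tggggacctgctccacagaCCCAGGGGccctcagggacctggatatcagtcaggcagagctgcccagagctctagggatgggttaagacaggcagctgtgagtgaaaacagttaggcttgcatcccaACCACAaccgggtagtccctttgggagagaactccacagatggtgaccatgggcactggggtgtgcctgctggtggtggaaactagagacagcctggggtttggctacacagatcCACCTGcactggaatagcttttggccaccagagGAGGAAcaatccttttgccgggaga
Vpreb3: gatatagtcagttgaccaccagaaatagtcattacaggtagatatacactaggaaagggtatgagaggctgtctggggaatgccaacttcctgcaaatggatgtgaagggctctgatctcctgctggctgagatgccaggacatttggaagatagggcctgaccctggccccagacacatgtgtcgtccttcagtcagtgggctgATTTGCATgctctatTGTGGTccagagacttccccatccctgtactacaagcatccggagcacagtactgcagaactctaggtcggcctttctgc

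Short motifs of early B cell factors were searched, chosen after the windows had been seen. CAGGTG, an E-box of the E2A type, stood in 6 of the 9 windows found (*Rag1*, *Vpreb1*, *Vpreb2*, *Igll1*, *Blnk* and *Cd79a*), and in 20.2% of all 32851 windows of 300 bases. GAGGAA, the core of PU.1 sites, stood in 5 of 9 windows and in 28.3% of all windows. TGTGGT, the Runx core, stood in 3 of 9 windows (*Rag1*, *Vpreb3*, *Igll1*) and in 16.8% of all. The octamer ATTTGCAT stood in the windows of *Blnk* and *Vpreb3*, 2 of 9, and in 1.74% of all. CCCNNGGG, the core of EBF sites, stood in 1 of 9 windows, that of *Igll1*, and in 13.7% of all. No 2 of these motifs overlapped in the windows shown. A match describes letters and is no measured binding site; no window was found for *Cd79b*.

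*Vpreb1* and *Vpreb2*, both on chromosome 16, are near-identical copies of the VpreB gene, and their windows are shown to show how alike the copies are. The *Vpreb1* window lies at chr16:16869206-16869505 (minus strand) and the *Vpreb2* window at chr16:17980315-17980614 (plus). Capitals mark the longest run the windows share, 91 bases, which holds the CAGGTG and GAGGAA matches of both. In the motif counts above, the matches of these copies are therefore not independent.
Vpreb1: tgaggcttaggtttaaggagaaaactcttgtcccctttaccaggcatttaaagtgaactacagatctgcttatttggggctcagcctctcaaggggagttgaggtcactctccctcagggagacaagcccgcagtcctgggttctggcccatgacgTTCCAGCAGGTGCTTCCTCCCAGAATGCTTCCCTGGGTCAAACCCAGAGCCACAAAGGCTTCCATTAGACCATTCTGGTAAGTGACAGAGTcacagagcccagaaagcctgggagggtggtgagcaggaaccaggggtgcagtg
Vpreb2: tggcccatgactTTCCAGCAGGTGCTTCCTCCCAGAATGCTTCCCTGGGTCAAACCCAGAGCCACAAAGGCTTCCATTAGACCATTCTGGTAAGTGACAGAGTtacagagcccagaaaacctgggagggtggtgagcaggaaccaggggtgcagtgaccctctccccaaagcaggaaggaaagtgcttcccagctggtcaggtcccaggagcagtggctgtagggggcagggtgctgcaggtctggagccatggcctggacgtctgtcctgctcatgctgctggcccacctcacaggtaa
Set against each other without gaps, the windows overlap over 156 bases, of which 153 (98.1%) are identical. The probes of either gene may read the other's transcript, so the share of each gene in its own signal is uncertain. Between *Vpreb1* and *Vpreb2* lie 35 protein-coding genes. Direct neighbours among protein-coding genes are 3 other pairs of the 10: *Rag1* and *Rag2*, *Vpreb1* and *Igll1*, and *Dntt* and *Blnk*.

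All values below are log2 intensities after quantile normalization of the 6 arrays, and a difference is on the log2 scale. A value is compared only with values of the same probe set, since probe sets differ in how brightly they read. The deposited log2 values had medians between 7.01 and 7.52 on the 6 arrays. Left as deposited, the median gene stood at −0.11 for BCR-ABL against vector, at 0.15 for BCR-ABL-Blk against vector, and at 0.255 for BCR-ABL-Blk against BCR-ABL. Signal over background was not measured, and folds are those of the signal. As a check of the sort, *Kit*, which encodes c-Kit, read 10.43 and 10.43 on the BCR-ABL arrays, 10.74 and 10.33 on the BCR-ABL-Blk arrays, and 10.71 and 10.92 on the vector arrays. Sca-1 (*Ly6a*) was not analysed here. *Blk* itself read 6.54 and 6.597 in BCR-ABL cells, 6.95 and 7.01 in BCR-ABL-Blk cells, and 7.15 and 6.95 in vector cells, so that it lay above BCR-ABL where the virus carried Blk (difference 0.41, adjusted p = 0.999), but not above vector. Whether its probes read the viral copy is not given in the labels.

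The first question was what BCR-ABL, with or without Blk, does to these genes in LSK cells. All 10 had differences below 0 from vector, where 45.6% of all genes did for BCR-ABL and 48.7% for BCR-ABL-Blk. The median of the 10 was −1.85 for BCR-ABL and −1.52 for BCR-ABL-Blk, and that of all 19938 genes was 0.02 and 0.004. When both BCR-ABL groups were set together against vector, 1 of the 10, *Blnk*, fell at an adjusted p under 0.05 (limma, Benjamini-Hochberg over all genes); 36 of all genes (0.181%) did. In that comparison all 10 lay below 0, where 47% of all genes did, and 0.502% of all genes were called in either direction. The median of the 10 was −1.68, against 0.01 for all genes, and 9 of the 10 were lower at an unadjusted p under 0.05, where 4.13% of all genes were. With each group alone against vector, 0 of the 10 passed in limma (by deposited values 9 and 8 did, with one spread assumed for genes of a level): 5 genes of all (0.0251%) were called lower in BCR-ABL cells and 9 (0.0451%) in BCR-ABL-Blk cells. At an unadjusted p under 0.05, 9 of the 10 were lower in BCR-ABL, where 2.96% of all genes were, and 8 of the 10 in BCR-ABL-Blk, where 4.11% were. In bulk samples, fewer cells of a type and less RNA per cell cannot be told apart.

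**Figure D1:**
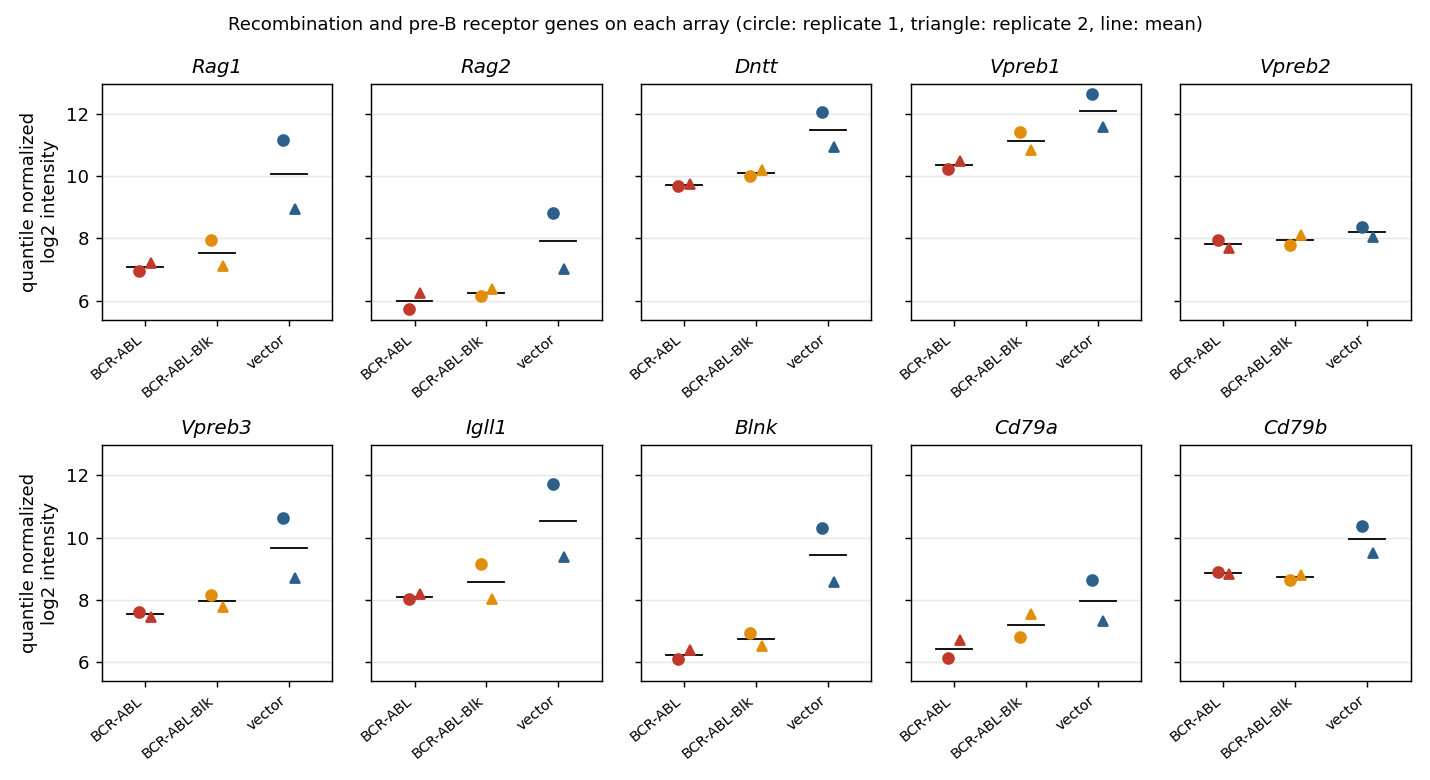
Quantile normalized log2 intensity (vertical axis) of each of the 10 genes on the 6 arrays, by group (horizontal axis); circles are replicate 1, triangles replicate 2, lines the mean of 2. Vector replicate 1 is the highest array in every panel, and the other vector array lies above all BCR-ABL and BCR-ABL-Blk arrays in every panel but those of *Vpreb2* and *Cd79a*.

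The recombinase genes were among the largest differences on the arrays. *Rag1* read 6.94 and 7.21 on the BCR-ABL arrays, 7.95 and 7.13 on the BCR-ABL-Blk arrays, and 11.17 and 8.94 on the vector arrays. All 4 arrays with BCR-ABL lay below both vector arrays, but the vector arrays themselves were 2.24 apart. The difference from vector was −2.98 in BCR-ABL (SE 0.64, 95% interval −4.47 to −1.49, adjusted p = 0.174) and −2.52 in BCR-ABL-Blk (adjusted p = 0.237). *Rag2*, whose protein is the partner of Rag1, read 5.74 and 6.24 in BCR-ABL cells, 6.15 and 6.37 in BCR-ABL-Blk cells, and 8.81 and 7.002 in vector cells. Both BCR-ABL groups again lay below both vector arrays, and the difference from vector was −1.92 in BCR-ABL (SE 0.50, adjusted p = 0.28) and −1.65 in BCR-ABL-Blk (adjusted p = 0.339). Ranked from the lowest difference up among all 19938 genes, *Rag1* stood in place 2 and *Rag2* in place 8 for BCR-ABL against vector.

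*Dntt*, whose polymerase widens the variety of the joints, read 9.67 and 9.76 on the BCR-ABL arrays, 10.01 and 10.20 on the BCR-ABL-Blk arrays, and 12.06 and 10.93 on the vector arrays. The 3 groups did not overlap, with BCR-ABL-Blk between the others. *Dntt* was 3.43-fold lower in BCR-ABL (difference −1.78, SE 0.32, adjusted p = 0.104) and 2.61-fold lower in BCR-ABL-Blk than in vector cells (difference −1.39, SE 0.32, adjusted p = 0.183).

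Among the surrogate light chain genes, *Igll1*, which encodes lambda5, had the largest difference from vector. It read 8.02 and 8.18 in BCR-ABL cells, 9.14 and 8.04 in BCR-ABL-Blk cells, and 11.71 and 9.39 in vector cells. The lower vector array stood just above the higher BCR-ABL-Blk array, and the vector arrays were 2.32 apart, more than for any other of the 10 genes. The difference from vector was −2.45 in BCR-ABL (SE 0.68, adjusted p = 0.322) and −1.96 in BCR-ABL-Blk (SE 0.68, adjusted p = 0.403). *Vpreb1*, the partner of lambda5 and its neighbour in the genome, read 10.24 and 10.49 in BCR-ABL cells, 11.41 and 10.84 in BCR-ABL-Blk cells, and 12.63 and 11.57 in vector cells. The 3 groups did not overlap, and BCR-ABL-Blk replicate 1 came close to the lower vector array. Its differences from vector were −1.74 in BCR-ABL (SE 0.33, adjusted p = 0.132) and −0.98 in BCR-ABL-Blk (SE 0.33, adjusted p = 0.377).

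*Vpreb2*, the copy of *Vpreb1*, had the smallest difference from vector of the 10. It read 7.95 and 7.69 in BCR-ABL cells, 7.78 and 8.12 in BCR-ABL-Blk cells, and 8.38 and 8.05 in vector cells. The BCR-ABL-Blk arrays overlapped the vector arrays, and the differences from vector were −0.40 in BCR-ABL (95% interval −0.83 to 0.03, adjusted p = 0.611) and −0.27 in BCR-ABL-Blk (95% interval −0.70 to 0.17, adjusted p = 0.744). Whether *Vpreb1* and *Vpreb2* responded differently was not tested, and their probes may share signal as noted beside the sequences. *Vpreb3*, a related chain that binds newly made heavy chains inside the cell, differed more. It read 7.62 and 7.44 in BCR-ABL cells, 8.16 and 7.78 in BCR-ABL-Blk cells, and 10.63 and 8.70 in vector cells, with the 3 groups apart. The differences from vector were −2.14 in BCR-ABL (SE 0.53, adjusted p = 0.241) and −1.70 in BCR-ABL-Blk (SE 0.53, adjusted p = 0.347).

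*Blnk*, the adaptor that carries the receptor signal onward from the kinase Syk, gave the largest difference from vector and the only call among the 10. It read 6.09 and 6.38 in BCR-ABL cells, 6.95 and 6.52 in BCR-ABL-Blk cells, and 10.32 and 8.56 in vector cells. The 3 groups did not overlap, and both vector arrays stood well above all 4 arrays with BCR-ABL. Set together, the BCR-ABL groups were 7.74-fold lower than vector (difference −2.95, SE 0.42, 95% interval −3.94 to −1.97, adjusted p = 0.0404). That was the lowest difference of all 19938 genes in this comparison. With each group alone it was −3.20 in BCR-ABL (SE 0.49, adjusted p = 0.0685) and −2.71 in BCR-ABL-Blk (SE 0.49, adjusted p = 0.101). The call for both groups together ended when any 1 of the 4 BCR-ABL or BCR-ABL-Blk arrays was left out (adjusted p from 0.0997 to 0.199, differences from −3.06 to −2.85), and without the intensity trend in the variance prior (adjusted p = 0.0686).

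The signalling chains of the receptor differed less. *Cd79b* read 8.89 and 8.82 in BCR-ABL cells, 8.65 and 8.81 in BCR-ABL-Blk cells, and 10.37 and 9.51 in vector cells, with both BCR-ABL groups below both vector arrays. Its differences from vector were −1.08 in BCR-ABL (SE 0.26, adjusted p = 0.224) and −1.21 in BCR-ABL-Blk (SE 0.26, adjusted p = 0.158). *Cd79a* read 6.13 and 6.72 in BCR-ABL cells, 6.81 and 7.55 in BCR-ABL-Blk cells, and 8.63 and 7.31 in vector cells. BCR-ABL-Blk replicate 2 lay above vector replicate 2, and the differences from vector were −1.55 in BCR-ABL (SE 0.44, adjusted p = 0.328) and −0.79 in BCR-ABL-Blk (SE 0.44, adjusted p = 0.654).

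Counted together, 10 of the 10 genes had both BCR-ABL arrays below both vector arrays, as did 14.9% of all genes. For BCR-ABL-Blk it was 8 of 10, against 17.5% of all genes, and for all 4 arrays with BCR-ABL it was 8 of 10, against 7.85%. At least 2-fold lower than vector were 9 of the 10 in BCR-ABL, with *Vpreb2* short of it, and 7 of 10 in BCR-ABL-Blk, where 0.431% and 0.657% of all genes were.

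**Figure D2:**
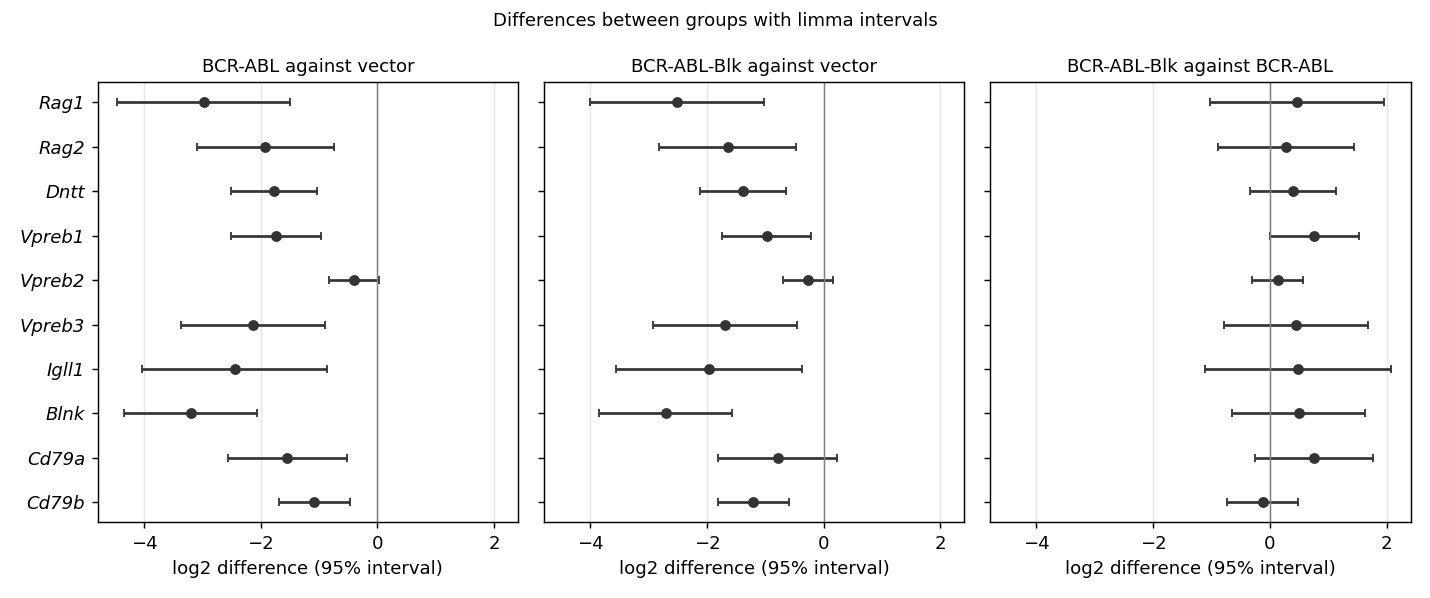
Log2 difference (horizontal axis) of each gene with its 95% limma interval, for BCR-ABL against vector, BCR-ABL-Blk against vector and BCR-ABL-Blk against BCR-ABL. All points of the first and second panel lie below 0, from −3.20 to −0.27, and the intervals of the third panel all include 0. Each gene's spread was pooled over the 3 groups, so the vector arrays also enter the intervals of the third panel.

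The vector arrays disagreed on the size of these differences. Replicate 1 read higher than replicate 2 for 10 of the 10 genes, by a median of 1.54 and by at least 1 for 8 of them; of all genes, 51.5% were higher on replicate 1 and 1.20% by at least 1. *Igll1* (2.32) and *Rag1* (2.24) were furthest apart, and *Vpreb2* (0.33) least. The median gap of the 10 genes was −0.21 between the BCR-ABL arrays and 0.10 between the BCR-ABL-Blk arrays. For both BCR-ABL groups against vector, the median of the 10 was −2.42 against vector replicate 1 alone and −0.92 against vector replicate 2 alone. All 10 differences lay below 0 against either array, from −3.87 (*Rag1*) to −0.50 (*Vpreb2*) against replicate 1 and from −2.08 (*Blnk*) to −0.17 (*Vpreb2*) against replicate 2.

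**Figure D3:**
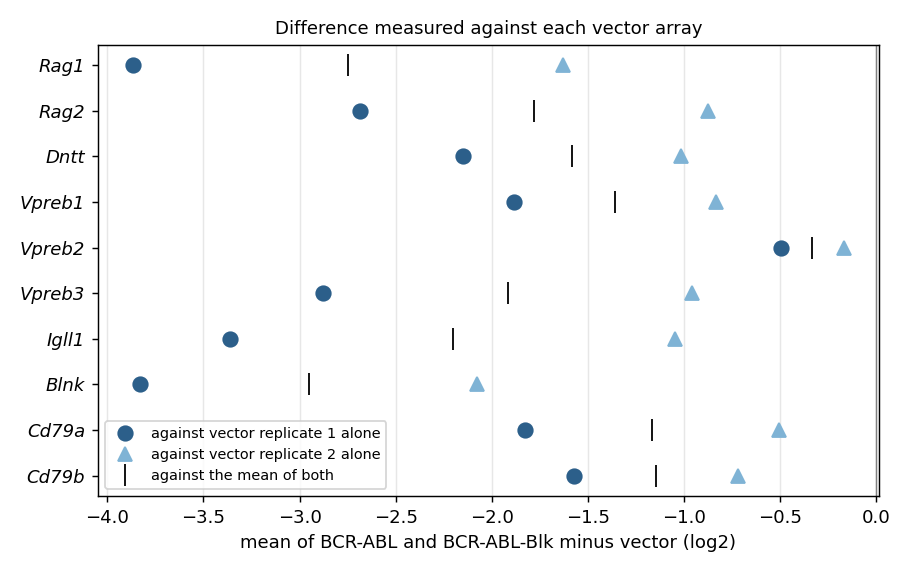
Difference of both BCR-ABL groups together from vector (horizontal axis, log2) for each gene, against vector replicate 1 alone (circles), against vector replicate 2 alone (triangles) and against their mean (bars). Every symbol lies below 0, and every circle lies below its triangle.

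With 1 vector array left out, the fit took the spread of the lone array from the other groups, and more genes passed. Without vector replicate 1, the differences for both BCR-ABL groups together were −2.08 for *Blnk*, −1.63 for *Rag1*, −1.04 for *Igll1*, −1.02 for *Dntt* and −0.96 for *Vpreb3*. They were −0.88 for *Rag2*, −0.83 for *Vpreb1*, −0.72 for *Cd79b*, −0.50 for *Cd79a* and −0.17 for *Vpreb2*. Without vector replicate 2, each of the 10 lay further below 0. These fits set aside the spread between the vector arrays, so their adjusted p-values do not cover it.

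The second question was whether added Blk changes these genes in cells that carry BCR-ABL. By limma 0 of the 10 passed, and 0 of all 19938 genes (0%). At an unadjusted p under 0.05 there were 0 of the 10, while 497 of all genes (2.49%) were lower and 293 (1.47%) higher. The differences of 9 of the 10 lay above 0, with a median of 0.45 against −0.01 for all genes, of which 54.3% lay below 0. The exception, *Cd79b*, had a difference of −0.13 (0.15 on the deposited values) and was the 1 gene of the 10 with both BCR-ABL-Blk arrays below both BCR-ABL arrays, as 20% of all genes had. The reverse, with no overlap, held for 5 of the 10 (*Dntt*, *Vpreb1*, *Vpreb3*, *Blnk* and *Cd79a*) and for 14% of all genes. The largest differences were those of *Vpreb1*, 0.76 (SE 0.33, 95% interval −0.004 to 1.52, adjusted p = 0.999), and of *Cd79a*, 0.76 (SE 0.44, 95% interval −0.26 to 1.78, adjusted p = 0.999). Without BCR-ABL-Blk replicate 1 *Vpreb1* differed by 0.47, and *Cd79a* differed by 1.13 without that array, by 0.39 without BCR-ABL-Blk replicate 2 and by 0.46 without BCR-ABL replicate 1. The interval of *Blnk* ran from −0.65 to 1.64 and that of *Rag1* from −1.03 to 1.95. Changes of 2-fold either way for *Rag1*, and a 2-fold rise for *Blnk*, lie within these intervals. The fit pooled the spread of all 3 groups, so the vector arrays, which are outside this comparison, enter its SEs and intervals. The SD of *Rag1* was 0.192 in BCR-ABL, 0.585 in BCR-ABL-Blk and 1.582 in vector. For *Blnk* it was 0.206, 0.305 and 1.241. BCR-ABL-Blk replicate 1 read above replicate 2 for 5 of the 10 (*Rag1*, *Vpreb1*, *Vpreb3*, *Igll1* and *Blnk*) and below it for the other 5. Without replicate 1 the *Rag1* difference was 0.05 and the *Igll1* difference −0.06. On the deposited values without further normalization, where the median gene lay 0.255 higher in BCR-ABL-Blk, 3 of the 10 were called higher: *Vpreb1* (0.945), *Cd79a* (1.06) and *Dntt* (0.62), with 79 genes called in all.

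The 10 genes followed each other closely over the 6 arrays. The correlation of a gene with the mean of the other 9 was between 0.945 and 0.989 for *Rag1*, *Rag2*, *Dntt*, *Vpreb1*, *Vpreb3*, *Igll1*, *Blnk* and *Cd79b*, and was 0.877 for *Cd79a* and 0.782 for *Vpreb2*. These values describe 6 arrays of 3 groups, with vector replicate 1 the highest for each gene. The 8 other genes most like the mean profile, out of 138 genes with a range of at least 2 over the arrays, had correlations with it from 0.960 to 0.987. They were *Pde2a*, a cyclic nucleotide phosphodiesterase (0.987), the guanylate-binding protein genes *Gbp4* (0.980) and *Gbp8* (0.979), *Mzb1*, a chaperone of antibody-making cells (0.976), *Ctse*, the protease cathepsin E (0.968), *Lef1*, a transcription factor of the Wnt pathway and of early lymphocytes (0.963), *Cecr2* (0.960) and *Il7r*, the receptor for interleukin 7 (0.960). *Gbp4* and *Gbp8* are related genes whose probes may share signal. *Il7r* read 6.64 and 6.73 in BCR-ABL cells, 6.99 and 6.33 in BCR-ABL-Blk cells, and 9.70 and 7.35 in vector cells, again with vector replicate 1 far above all others. None of these 8 passed in any of the 3 comparisons with vector (smallest adjusted p = 0.124, for *Ctse* with both BCR-ABL groups together).

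**Figure D4:**
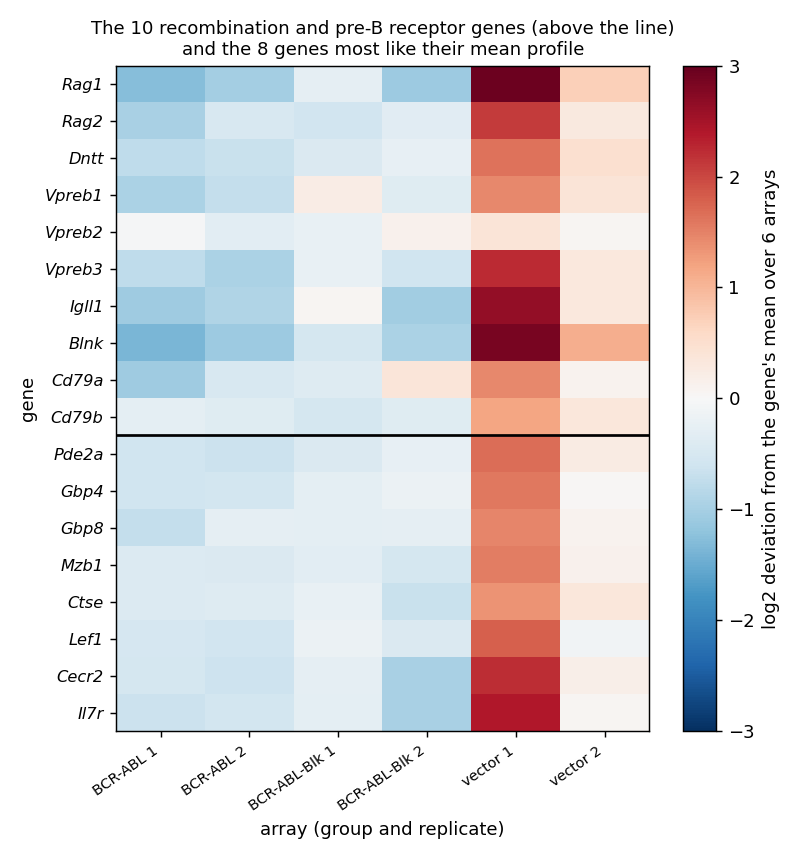
Log2 deviation (colour) of the 10 genes and of the 8 most similar genes from each gene's mean over the 6 arrays (columns). Vector replicate 1 carries the highest value for each of the 10 genes, and the 8 below the line were picked for their likeness to that profile.

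Lists of other genes of the pathway had medians close to that of all genes. For both BCR-ABL groups against vector, 0 of 14 measured genes of recombination cofactors and end joining passed in either direction, and their median was 0.09. Of all genes 0.502% were called, so few or no calls are likely in lists this short. *Xrcc5*, the Ku80 subunit that binds broken DNA ends, differed by 0.70 (SE 0.15, adjusted p = 0.127), *Lig4*, the ligase that seals them, by −0.50 (SE 0.12, adjusted p = 0.162), the joining factor *Nhej1* by 0.48 (adjusted p = 0.481) and the ubiquitin ligase *Rnf168* by 0.12 (adjusted p = 0.668). Of 17 measured genes for the heavy chain, coreceptors and signalling, 0 passed and the median was −0.05. *Fyn*, a Src family kinase, differed by 0.80 (SE 0.14, adjusted p = 0.0646), while the adaptors *Pik3ap1* and *Shc1* differed by −0.63 and −0.45 and the kinase *Prkcb* by −0.58, none of them past the test. *Ighm*, the heavy chain that pairs with the surrogate light chain, read between 7.58 and 7.88 on all 6 arrays (difference 0.05, adjusted p = 0.943), and *Syk*, the kinase upstream of Blnk, between 8.84 and 9.19 (difference −0.16, adjusted p = 0.751). *Lyn* was not analysed here.

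Of the transcription factors of early B cells, 13 of 16 had differences below 0 for both BCR-ABL groups against vector, with a median of −0.44, and 0 passed; of all genes 47% lay below 0 and 0.502% were called. *Irf8* differed by −1.19 (SE 0.21, adjusted p = 0.0646), *Ebf1* by −2.77 (SE 0.63, adjusted p = 0.15), *Pax5* by −1.43 (adjusted p = 0.263) and *Tcf3*, which encodes the E2A proteins that bind E-boxes, by −0.44 (adjusted p = 0.269). *Ebf1* read 6.41 and 7.74 in BCR-ABL cells, 7.45 and 6.16 in BCR-ABL-Blk cells, and 10.75 and 8.68 in vector cells. Its vector arrays stood 2.06 apart, with replicate 1 the higher, as for the 10 genes. Vector replicate 1 was the higher for 13 of the 16 factors (median gap 0.37), and for 51.5% of all genes. *Irf8* went the other way, at 9.29 on vector replicate 1 and 10.002 on replicate 2.

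One list held markers of lymphoid-primed progenitors, which the LSK gate can hold, and of common lymphoid progenitors, which carry less c-Kit and Sca-1 and lie outside it. Of its 11 measured genes 8 had differences below 0 (median −0.45), against 47% of all genes, and 1 passed, against 0.502% called. *Satb1*, a chromatin organizer of lymphoid progenitors, read 9.95 and 10.32 in BCR-ABL cells, 10.22 and 10.17 in BCR-ABL-Blk cells, and 11.002 and 10.93 in vector cells. It fell (difference −0.80, SE 0.12, adjusted p = 0.0481), and its vector arrays read alike. That call ended without any 1 of the 4 arrays with BCR-ABL (adjusted p from 0.102 to 0.153), after median centring of the arrays (0.301), with array weights (0.0691), without the intensity trend (0.0686) and with the replicate block (0.0524). The difference stayed between −0.89 and −0.71 under the alternatives run. *Gimap6* (0.43), *Evl* (−0.54) and *Il7r* (−1.86) did not pass. B cell markers, which a gate against lineage-positive cells should remove, had a median of −0.21 over 13 measured genes with 8 below 0, where 47% of all genes were, and 0 passed. The leading genes were *Mzb1* (−1.26, adjusted p = 0.219), *Blk* (−0.28, adjusted p = 0.353), *Fcrla* (−0.34, adjusted p = 0.418) and *Pou2af1* (−0.97, adjusted p = 0.458). *Blk*, counted in this list, is also carried by the virus of the BCR-ABL-Blk group. Its difference from vector was −0.07 in BCR-ABL-Blk cells and −0.48 in BCR-ABL cells. *Ms4a1*, which encodes CD20 of more mature B cells, differed by 0.04. Summed over the 13 genes, the B cell marker levels were 93.5 and 93.5 on the BCR-ABL arrays, 92.9 and 92.6 on the BCR-ABL-Blk arrays, and 99.9 and 93.2 on the vector arrays. The sum on vector replicate 1 thus stood apart, with the largest gaps for *Pou2af1* (1.64), *Mzb1* (1.40) and *Ly6d* (1.38). The median gap of the 13 genes was 0.195. *Ly6d* is also among the lymphoid progenitor markers, so these lists are not independent. The summed levels of the 11 lymphoid progenitor markers were 95.7 and 96.6 on the BCR-ABL arrays, 97.5 and 97.4 on the BCR-ABL-Blk arrays, and 104.2 and 98.7 on the vector arrays. Signals of 0 do not occur on this scale, and the part of B cells or lymphoid progenitors in the result was not tested.

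T cell markers, which were looked at since thymocytes also recombine, had a median of 0.00 over 11 measured genes. None passed, where 0.502% of all genes were called. *Cd8a* differed by −0.28, *Gata3* by 0.26, *Cd3e* by 0.12 and *Cd3d* by −0.11. The summed levels of the 11 genes were 73.4 and 74.1 in BCR-ABL cells, 73.5 and 72.9 in BCR-ABL-Blk cells, and 73.9 and 73.1 in vector cells. Plasmacytoid dendritic cells, which a gate on c-Kit and Sca-1 without lineage markers should remove, can also carry *Rag1* and *Dntt* transcripts. Of their 9 measured markers 9 lay below 0 (median −0.34), where 47% of all genes did. *Cox6a2*, a respiratory chain subunit, fell (difference −1.05, SE 0.13, adjusted p = 0.0271; from 0.0758 to 0.145 without any 1 of the 4 arrays with BCR-ABL), while *Siglech* (−0.42), *Irf7* (−0.80) and *Ccr9* (−0.78) did not pass. *Ccr9* is also in the list of lymphoid progenitor markers. The summed levels of the plasmacytoid dendritic cell markers were 66.5 and 67.0 in BCR-ABL cells, 67.1 and 68.4 in BCR-ABL-Blk cells, and 73.1 and 69.8 in vector cells. Their part in the result was not tested.

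Of 11 neutrophil markers 11 had differences below 0 (median −0.44), where 47% of all genes did. None passed the test (*Elane* −1.26, *Fcnb* −1.12, *Prtn3* −0.87, *Mpo* −0.31), where 0.502% of all genes were called. For 11 of 11 vector replicate 2 read above replicate 1, while 51.5% of all genes were higher on replicate 1. Erythroid markers lay below 0 for 6 of 6 measured genes (median −0.56), also with 0 past the test (*Car1* −1.54, *Klf1* −0.78, *Ermap* −0.94, *Epor* −0.34). Stem and progenitor markers lay the other way, with 7 of 8 above 0 and a median of 0.69, where 47% of all genes lay below 0. The exception was *Kit*, the gene of the sort check (−0.33, adjusted p = 0.429). *Meis1*, a homeobox gene of stem cells, rose (difference 1.02, SE 0.12, adjusted p = 0.0245). Its call ended without any 1 of the 4 arrays with BCR-ABL (adjusted p from 0.0758 to 0.132) and after median centring of the arrays (0.0807), while the difference stayed between 0.87 and 1.18 under the alternatives run. *Mecom* (2.07, adjusted p = 0.0531), *Hlf* (0.66) and *Slamf1* (1.103) did not pass.

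**Figure D5:**
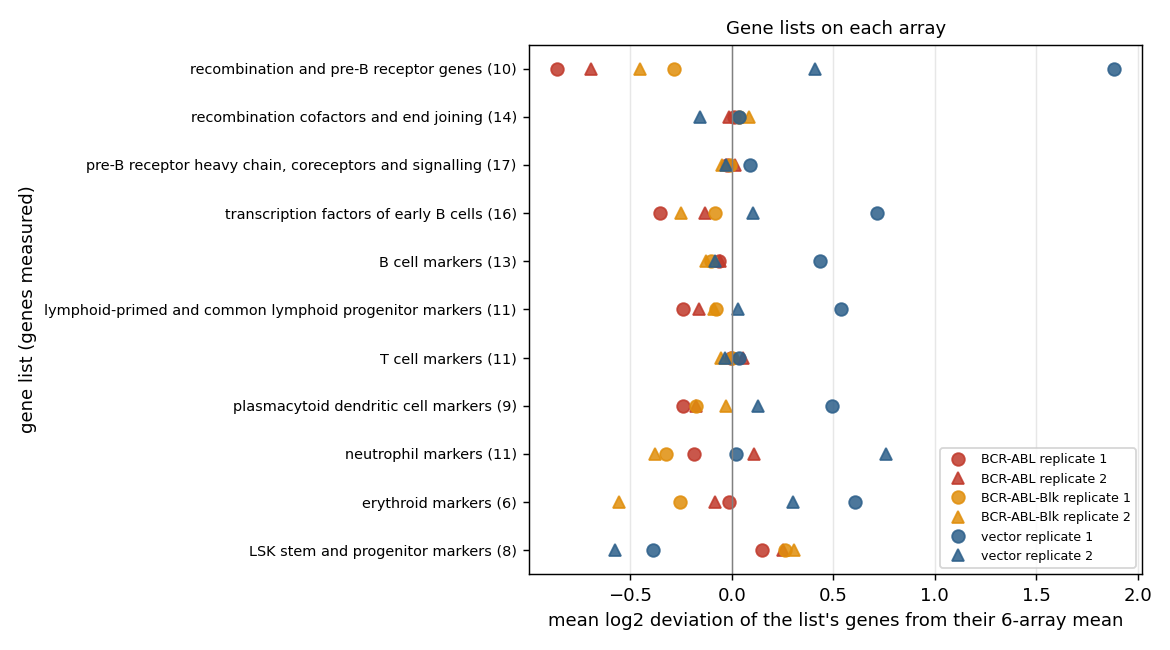
Mean log2 deviation (horizontal axis) of each gene list's measured genes from their means over the 6 arrays, 1 point per array, coloured by group, with circles for replicate 1 and triangles for replicate 2. The 10 recombination and pre-B receptor genes span from −0.86 (BCR-ABL replicate 1) to 1.88 (vector replicate 1), the widest range of the 11 lists shown.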

How the data were processed

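The deposited log2 values of 35557 probe sets were made by the authors with Affymetrix Expression Console 1.1 and RMA, per the submitters' processing notes; its options and the build were not given in the sources used here. Because array medians differed, the arrays were quantile normalized. Of 23410 annotated probe sets 21789 had 1 symbol and 1621 several; the others are unnamed here. By Entrez ID 21698 matched RefSeq. The probe set with the highest mean was kept per gene, leaving 19938 genes. Differences were fitted with limma 3.58.1 in R 4.3.3 (lmFit, eBayes with trend) over all 6 arrays and 3 groups, with 3 residual and 4.40 prior degrees of freedom. P-values are two-sided, adjusted over all genes and called below 0.05. The fit was tested on simulated data.

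The genes and lists were chosen with earlier results of these data known. The rule names all 10 genes, up to 4 genes with the smallest p of each list, the 8 most similar genes, *Kit* and *Blk*; predicted genes and antibody segments were skipped. *Ighm*, *Syk*, *Ms4a1*, *Ly6d* and the alternatives' examples, and *Satb1*, *Cox6a2* and *Meis1* under the alternatives, were added after their values were seen. Of 130 listed genes 117 were measured. Alternatives covered scaling, variance prior, weights, filter, probe sets, arrays fitted, a replicate block and each array left out. Promoter windows are RefSeq's (GRCm38.p6). Figures used Python 3.11.15, pandas 2.3.3 and matplotlib 3.10.9.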

Additional observations from a re-analysis of the deposited data

How the results depend on the processing

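The medians of the 10 genes kept their sign in all comparisons under the 14 alternatives run. On the deposited values without further normalization, 9 of the 10 were called for BCR-ABL against vector (401 genes in all), 8 for BCR-ABL-Blk against vector (732), 9 for both groups against vector (614) and 3 for BCR-ABL-Blk against BCR-ABL (79). There the variance prior had infinite degrees of freedom, so that a gene's own spread did not enter its p-value. Without the intensity trend 0 of the 10 passed for both groups against vector, and 15 and 4 genes in all for BCR-ABL and for BCR-ABL-Blk against vector. Array weights gave 14 genes for BCR-ABL-Blk against vector, fitting only the compared arrays 4. Keeping genes at or above the median level, which 7 of the 10 were and *Blnk* was not, gave 53 genes for BCR-ABL and 71 for BCR-ABL-Blk against vector, and *Dntt* then passed for both groups (adjusted p = 0.0387).

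Each array was left out in turn. For BCR-ABL against vector, 0 to 9 of the 10 and 1 to 507 genes passed, with medians of the 10 from −2.58 to −1.19. For BCR-ABL-Blk against vector it was 0 to 8 of the 10 and 4 to 560 genes, with medians from −2.25 to −0.76. For both groups it was 0 to 9 of the 10 and 7 to 774 genes, with medians from −2.42 to −0.92. For BCR-ABL-Blk against BCR-ABL, 0 to 2 genes passed, and the medians ran from 0.29 to 0.55. Against vector, the highest counts and both ends of the medians came from leaving out a vector array. For BCR-ABL-Blk against BCR-ABL the sign turned for *Cd79b* on deposited values (0.15), for *Igll1* without BCR-ABL-Blk replicate 1 (range with 1 array left out −0.06 to 1.04), and for *Vpreb2* without BCR-ABL replicate 2 (−0.001) and without BCR-ABL-Blk replicate 2 (range −0.036 to 0.299). Centring each array on its median ended the calls of *Satb1* (difference −0.73, adjusted p = 0.301) and *Meis1* (1.08, adjusted p = 0.0807), alternatives added after their values were seen. The cause was not tested.

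With the replicate number as a block, 0, 0, 1 and 0 of the 10 passed for BCR-ABL, BCR-ABL-Blk and both groups against vector and for BCR-ABL-Blk against BCR-ABL, among 29, 23, 132 and 0 genes, with unchanged medians. Deviations of same-numbered arrays were nearly uncorrelated across genes (−0.06, 0.08 and 0.03). The labels do not say whether same-numbered arrays were paired. These correlations cannot decide it, since they compare only replicate 1 minus replicate 2 of each group. The number of arrays, 2 per group, limits the precision, and signal over background was not measured.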
